A study of Mus musculus with 9 samples.

Results

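The gene set described here is the DNA replication machinery, 58 genes of the 19359 in the deposited expression table, measured in mouse embryos after pronuclear transfer. Members were taken by gene symbol, from a list chosen with earlier results of these data known, and all 58 were in the table. They fall into 10 roles: origin recognition, origin licensing, the MCM helicase, helicase activation, DNA polymerases, the sliding clamp and its loader, the single-strand binding complex RPA, Okazaki fragment maturation, topoisomerases and nucleotide supply. A total of 57 members reached at least 1 CPM (its reads divided by the library total, on a common scale) in at least 3 libraries and were tested.

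In pronuclear transfer the pronuclei of 1 zygote are placed in the cytoplasm of another egg. Poly(A) RNA was sequenced from 9 pools of 3 embryos, all collected at 34 h after fertilization, with 3 libraries (A, B and C) in each group. SPN embryos had a sham transfer and are the control, EPN embryos had an early transfer and LPN embryos a later one. In all groups the eggs came from hormone-stimulated B6D2F1 females aged 8 to 12 weeks. No genotype, transgene or drug separates the groups in the labels. The protocols also describe preparing cytoplasts by selective enucleation of oocytes at the germinal vesicle stage, and do not say which group, if any, received such cytoplasm. The male parent, the hour of each transfer and the stage reached at collection are likewise not given. The pools are not said to come from separate days or matings, so the p-values speak only of the spread among these pools, which may be technical. The series title ties the outcome of pronuclear transfer to the first embryonic replication, which is the question these genes bear on.

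Replication starts in G1, when the origin recognition complex (ORC) binds DNA and, with Cdc6 and Cdt1, loads the MCM ring as an inactive double hexamer; geminin (Gmnn) blocks Cdt1 so that no origin is licensed again in the same cycle. In S phase the kinases Cdc7-Dbf4 and CDK let Cdc45 and the GINS complex join MCM to form the active helicase. Polymerase alpha-primase then lays primers, the RFC complex loads the PCNA clamp, and polymerases epsilon and delta extend the leading and lagging strands. In the early mouse embryo much of this machinery is inherited from the oocyte as RNA and protein, and transcription from the embryonic genome begins around the first divisions.

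Library totals ran from 7611781 to 15559218 reads, so a single read was worth 0.0643 to 0.131 CPM, and 0 reads in a library allows up to 3 reads, or 0.193 to 0.394 CPM. That limit and all others here cover counting error only, since the reads carry no molecular identifiers. The 58 members together took 0.768% to 0.978% of each library. On the first principal component of all tested genes SPN A lay at -1.97, among the EPN libraries (-29.4 to 7.26) and apart from SPN B (-50.7) and SPN C (-84.6), so results against SPN are also given without it. That choice was made from these same data and favours larger differences from SPN. Without SPN A the genes called went from 16 to 458 in EPN against SPN and from 1309 to 2753 in LPN against SPN. Values without SPN A are thus no separate support for a difference. The median of all tested genes was shifted on the log2 scale by -0.07 in EPN and -0.17 in LPN relative to SPN, and by -0.14 in LPN relative to EPN. In a bulk pool, fewer cells of a kind and less RNA per cell cannot be told apart.

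In LPN against SPN, 3 of the 57 tested members rose and none fell. They were Orc3, an ORC subunit, Prim1, the catalytic subunit of primase, and Rfc2, a clamp loader subunit, each higher in all 3 LPN libraries than in any SPN library. These are 5.26% of the members, beside 3.26% of all tested genes that were higher and 5.54% that were lower by the same test (limma on log2(CPM + 1), Benjamini-Hochberg adjusted over 14876 genes, adjusted p under 0.05). In LPN against EPN the GINS subunit gene Gins1 alone rose, 1.75% of the members beside 0.692% of all genes higher and 0.84% lower. In EPN against SPN no member passed, beside 0.0739% of all genes higher and 0.0336% lower. These shares of members are not far from the background, and most of the machinery did not pass the test at either timing.

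**Figure D1:**
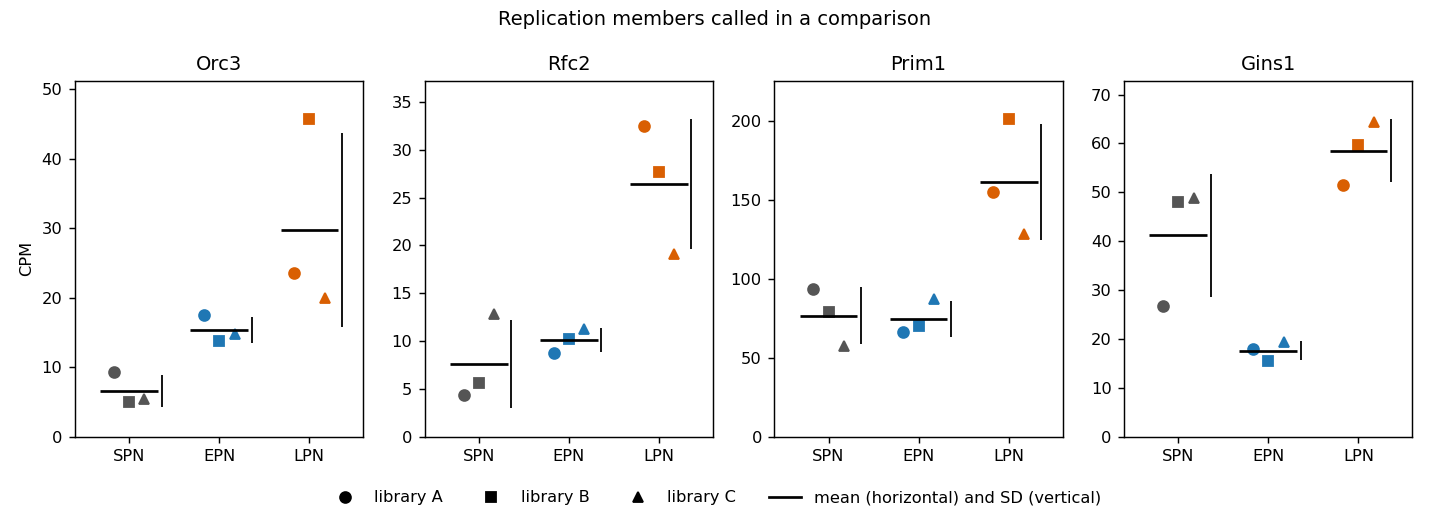
CPM (vertical axis, linear from 0) of Orc3, Rfc2, Prim1 and Gins1 in the 9 libraries, with the horizontal line at the group mean and the vertical line spanning 1 SD each way (n = 3). The LPN points of Orc3, Rfc2 and Prim1 lie above all SPN and EPN points, and the EPN points of Gins1 (15.6 to 19.3 CPM) lie below all others.

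Orc3 and Prim1 are shown with the sequence upstream of their start sites, because both were called and both carry the same E2F-like heptamer, TTCCCGC, near the start. E2F factors are the classical transcription factors of S-phase genes. The sequences are the 250 bases before the annotated start, from RefSeq on GRCm38.p6, read 5′ to 3′ on the gene's strand, with the heptamer in capitals. Orc3 lies on the minus strand at chr4:34614943-34615192 and its heptamer begins 40 bases before the start. Prim1 lies on the plus strand at chr10:128014965-128015214 and its heptamer begins 15 bases before the start.
Orc3: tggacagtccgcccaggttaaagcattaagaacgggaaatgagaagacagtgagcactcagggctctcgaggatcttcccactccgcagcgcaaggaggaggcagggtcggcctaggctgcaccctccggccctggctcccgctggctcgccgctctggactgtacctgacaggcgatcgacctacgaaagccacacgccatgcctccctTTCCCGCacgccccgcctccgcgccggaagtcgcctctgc
Prim1: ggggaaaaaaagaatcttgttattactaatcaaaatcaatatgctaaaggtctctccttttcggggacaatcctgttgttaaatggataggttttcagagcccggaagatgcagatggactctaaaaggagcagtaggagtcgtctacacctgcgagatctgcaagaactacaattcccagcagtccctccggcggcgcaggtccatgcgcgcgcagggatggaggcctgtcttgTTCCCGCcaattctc

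The Prim1 window also holds a CCAAT box, the core of a binding site of the factor NF-Y, whose first base is the last base of the heptamer. Of the 58 members 48 had a promoter entry, and 16 of these (33.3%) held TTCCCGC or TTGGCGC on either strand in the 250 bases, beside 1743 of 27025 genes in the same table (6.45%). CCAAT on either strand was in 26 of 48 (54.2%), beside 10133 of 27025 (37.5%). The motifs were chosen after both windows had been looked at, and Orc3 and Prim1 are among the 16. No other of the 16 was called in the main test. In LPN against SPN the log2 differences of the 16 had both signs, from Mcm5 at -0.85 to Orc3 at 1.98. The 27025 genes are not limited to those tested here, so the shares are not set against genes of like expression. A match describes letters in a window, and the search covers neither other motifs nor other start sites. Rfc2 and Gins1 had no entry.

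Levels per kilobase of transcript (CPM divided by the length of the principal transcript) spanned a wide range within most complexes. The highest in the median library were Gmnn at 1193 CPM per kb, the epsilon subunit gene Pole4 at 886, Orc6 at 474 and Dbf4 at 313. At the low end were Pold1, the catalytic subunit of polymerase delta, at 0.257 CPM per kb, its partner Pold4 at 0.352, the flap endonuclease gene Fen1 at 0.731 and the helicase gene Recql4 at 1.82. The 7 genes grouped with the MCM ring were the closest to each other apart from the topoisomerases, from Mcm5 at 14.5 to Mcm6 at 62.5 CPM per kb, a 4.32-fold span. ORC spanned 73.8-fold from Orc3 (6.42) to Orc6 (474), and the polymerases 3454-fold from Pold1 to Pole4. Within the clamp and its loader the span was 73.5-fold, from Rfc2 at 2.25 CPM per kb to Pcna, the clamp itself, at 165. Rfc2 is scaled by a long principal transcript of 4995 bases with only 1047 coding bases; per coding kb it stood at 10.7 CPM.

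**Figure D2:**
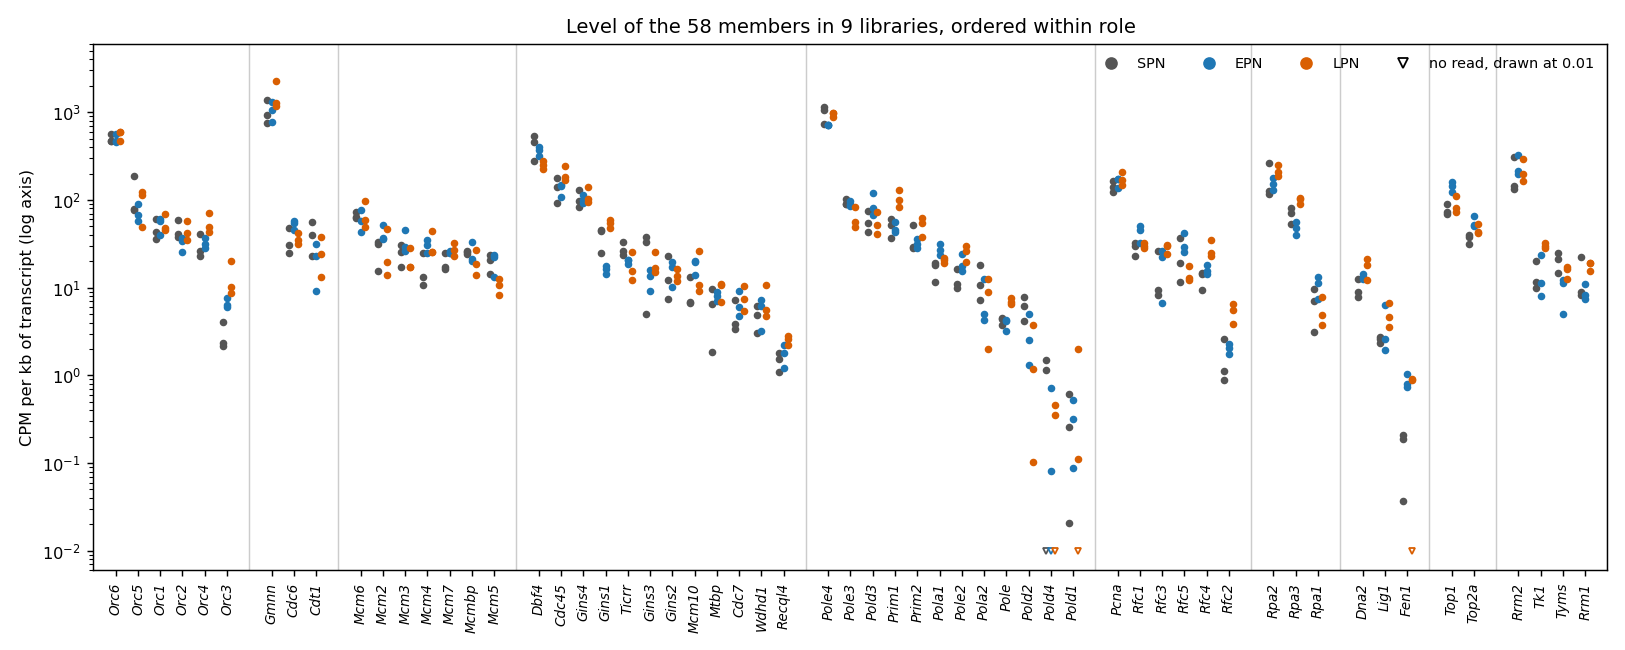
CPM per kb of principal transcript (log axis) of the 58 members in each of 9 libraries, ordered by level within each role, with SPN in grey, EPN in blue and LPN in orange and open triangles for libraries with no read. Gmnn lies highest, up to 2284 in 1 LPN library, and Pold1, Pold4 and Fen1 lie lowest, with none of their libraries above 2.01.

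Among the ORC genes, whose products mark origins, Orc3 was at 9.24, 4.96 and 5.42 CPM in SPN A, B and C, at 17.5, 13.8 and 14.8 CPM in EPN, and at 23.6, 45.7 and 19.9 CPM in LPN. The 3 groups did not overlap, in the order SPN, EPN, LPN. Orc3 rose 3.94-fold in LPN over SPN (log2 1.98, SE 0.49, limma adjusted p = 0.0131). In EPN it was 1.15 higher on the log2 scale than in SPN (adjusted p = 0.375). LPN against EPN gave 0.83 (adjusted p = 0.356). The Orc3 call against SPN was lost without SPN B (adjusted p = 0.0512), without SPN C (0.0728) or without LPN B (0.111), and without SPN A the difference was 2.22 (adjusted p = 0.00395). Orc4, another core subunit, was at 168, 92.8 and 108 CPM in SPN, 114, 149 and 127 CPM in EPN, and 202, 288 and 174 CPM in LPN. All 3 LPN libraries of Orc4 were the highest, with a log2 difference of 0.86 from SPN (SE 0.30, adjusted p = 0.0674) and 0.74 from EPN (adjusted p = 0.176). Orc6, the most abundant ORC transcript, did not separate the groups (647 ± 75.3, 636 ± 70.5 and 710 ± 87.0 CPM; mean ± SD, n = 3). Orc1, Orc2 and Orc5 had log2 differences between -0.57 and 0.47 in the 3 comparisons, and none passed. Orc5 was at 397 CPM in SPN A and at 163 and 165 CPM in SPN B and C.

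Licensing rests on Cdc6 and Cdt1, with geminin as brake. Cdt1 was at 50.4, 124 and 86.7 CPM in SPN, 50.0, 20.2 and 69.7 CPM in EPN, and 53.1, 29.3 and 83.8 CPM in LPN. Its EPN libraries overlapped those of SPN, with a log2 difference of -0.96 (SE 0.42, adjusted p = 0.395). Gmnn was at 1043, 1535 and 840 CPM in SPN, 872, 1460 and 1204 CPM in EPN, and 1435, 2574 and 1344 CPM in LPN. LPN B held the highest Gmnn level, and the LPN difference from SPN was 0.63 (SE 0.30, adjusted p = 0.169) and from EPN 0.56 (adjusted p = 0.295). The ratio of Gmnn to Cdt1 CPM ran from 9.69 to 20.7 in SPN, from 17.3 to 72.2 in EPN and from 16.0 to 87.9 in LPN. The groups overlapped in this ratio, and its highest values came from EPN B and LPN B. Cdc6 averaged 88.1 ± 31.6 CPM in SPN, 135 ± 16.4 in EPN and 92.6 ± 12.9 in LPN, and all 3 EPN libraries of Cdc6 lay above all LPN libraries (log2 difference of LPN from EPN -0.54, adjusted p = 0.345).

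The MCM2-7 ring is the core of the helicase, and no MCM gene passed in any comparison in limma with all 9 libraries and the filter of 1 CPM. Mcm4 was at 88.2, 47.2 and 38.7 CPM in SPN, 89.5, 125 and 109 CPM in EPN, and 91.5, 91.2 and 161 CPM in LPN. Every EPN and LPN library of Mcm4 exceeded every SPN library, but SPN A lay just under the lowest EPN library. The differences were 0.96 in EPN (SE 0.34, adjusted p = 0.28) and 1.0 in LPN (SE 0.34, adjusted p = 0.0575); without SPN A they were 1.30 (adjusted p = 0.0272) and 1.35 (adjusted p = 0.00581). Against SPN the LPN difference of Mcm4 also passed in DESeq2 (adjusted p = 0.0453), with median-of-ratios scaling (0.0423) and when genes under a mean of 5 CPM were left out (0.0423), and it did not in edgeR (0.117). Mcm5 went the other way in LPN, at 36.5, 28.1 and 42.7 CPM beside 48.9, 69.2 and 79.0 CPM in SPN and 74.7, 44.5 and 78.8 CPM in EPN. Its LPN libraries were the lowest of the 9, with a log2 difference of -0.85 from SPN (SE 0.35, adjusted p = 0.115) and -0.84 from EPN (adjusted p = 0.185). Mcm2 averaged 89.4 ± 32.7 CPM in SPN, 139 ± 29.9 in EPN and 89.9 ± 58.1 in LPN. Mcm3, Mcm6 and Mcm7, and Mcmbp, an MCM-binding chaperone, had log2 differences from -0.67 to 0.48. The subunits of this ring, which work in equal numbers, thus had log2 differences of both signs in LPN against SPN, from Mcm5 at -0.85 to Mcm4 at 1.0.

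Helicase activation needs Cdc45, GINS, Mcm10, Cdc7-Dbf4 and the loading factors Ticrr, Mtbp and Recql4, with Wdhd1 (And-1) tying the helicase to polymerase alpha. Gins1 was at 26.7, 48.0 and 48.8 CPM in SPN, 17.9, 15.6 and 19.3 CPM in EPN, and 51.5, 59.6 and 64.3 CPM in LPN. No pair of groups overlapped, and EPN was the lowest. Gins1 rose 3.2-fold in LPN over EPN (log2 1.68, SE 0.38, adjusted p = 0.0258). Its EPN difference from SPN was -1.14 (adjusted p = 0.243), or -1.42 without SPN A (adjusted p = 0.0294), and its LPN difference from SPN was 0.54 (adjusted p = 0.365). The LPN against EPN call was lost without EPN A (adjusted p = 0.112), EPN B (0.0581), EPN C (0.0944), LPN A (0.0796) or LPN B (0.135). The other GINS subunits, which bind Gins1 in a fixed complex, had differences of -0.13 (Gins2), 0.56 (Gins3) and 0.12 (Gins4) in LPN against EPN, and none passed. Of the exon bases of Gins2, 67.3% lie under Gse1 on the other strand (3.81 to 18.8 CPM). The counting is not said to use strand, so reads of that pair may be mixed. Gins3 was at 12.6 CPM in SPN A and at 83.5 and 94.8 CPM in SPN B and C.

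Dbf4, the regulatory subunit of the Cdc7 kinase, was at 668, 1292 and 1091 CPM in SPN, 963, 753 and 894 CPM in EPN, and 548, 596 and 668 CPM in LPN. The LPN libraries were all below the EPN ones, and LPN C was level with SPN A. The LPN difference from SPN was -0.70 (SE 0.27, adjusted p = 0.096), and without SPN A -0.98 (adjusted p = 0.00579). Cdc7, its catalytic partner, was at far lower levels, 15.2 ± 6.62 CPM in SPN, 20.9 ± 7.24 in EPN and 24.4 ± 7.85 in LPN, with a difference of 0.68 in LPN against SPN (adjusted p = 0.353). Mcm10 averaged 43.6 ± 18.6 CPM in SPN and 86.7 ± 16.5 in EPN without overlap (log2 1.03, adjusted p = 0.30), and spread from 44.4 to 126 CPM in LPN. Ticrr, one of the loading factors, was lower in every EPN library (145 ± 8.22 CPM) than in every SPN library (199 ± 35.4 CPM, limma adjusted p = 0.616). Cdc45 averaged 294 ± 92.4, 287 ± 49.2 and 423 ± 86.2 CPM in SPN, EPN and LPN, and its LPN libraries all exceeded the EPN ones (log2 0.56, adjusted p = 0.283).

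**Figure D3:**
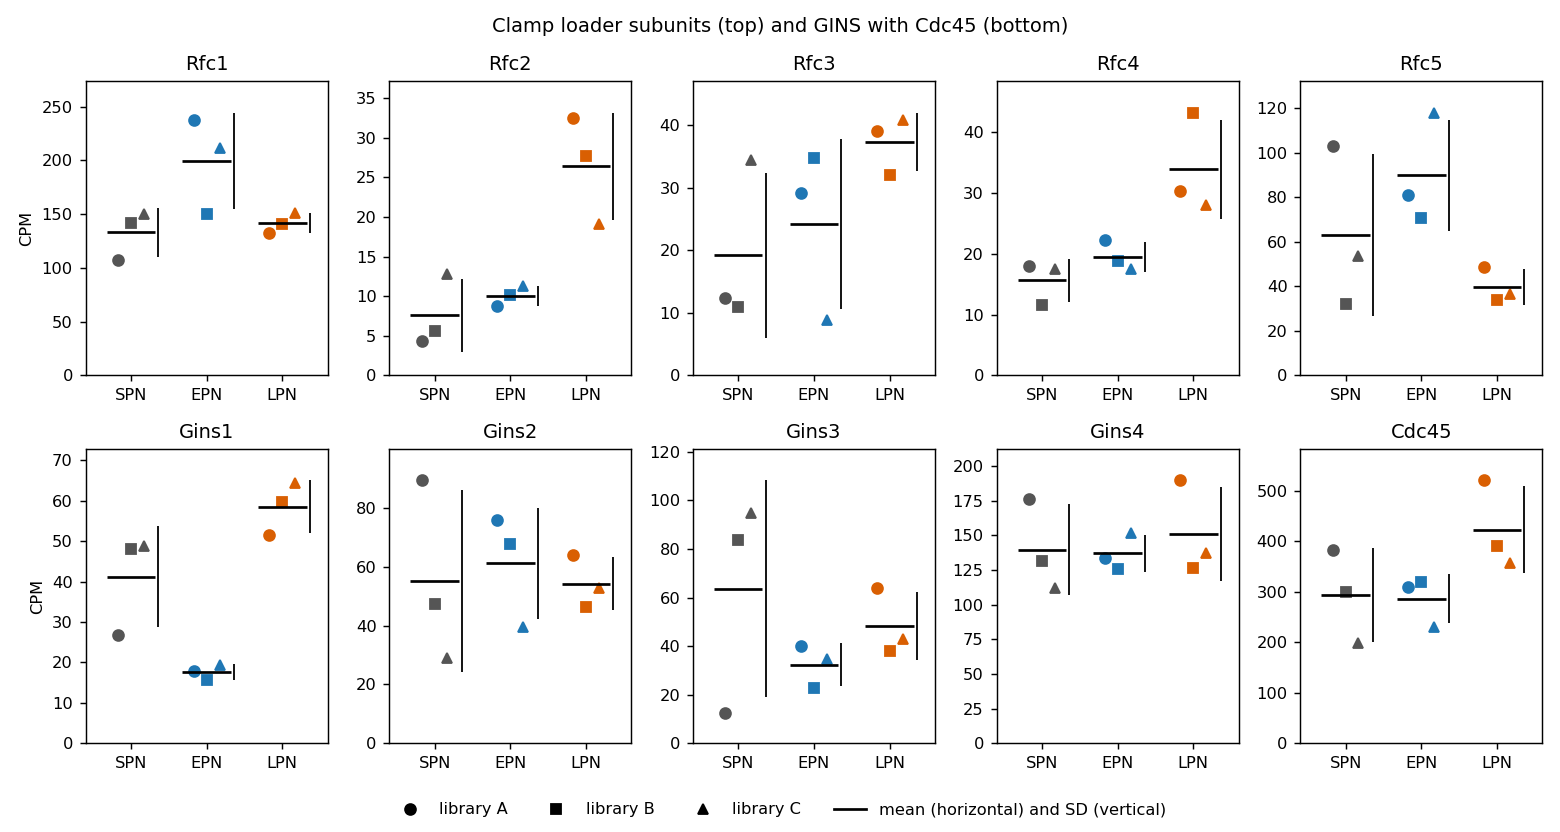
CPM (linear axes from 0, a scale for each gene) of the 5 clamp loader subunits in the top row and of GINS and Cdc45 in the bottom row, with group mean and SD (n = 3). LPN points are highest for Rfc2 and Rfc4 and lowest or nearly so for Rfc5, and Gins1 is the GINS subunit with EPN below every other library.

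Of the DNA polymerase genes, Prim1 was at 93.3, 78.7 and 57.3 CPM in SPN, 66.0, 70.0 and 87.2 CPM in EPN, and 155, 201 and 128 CPM in LPN. SPN and EPN overlapped and LPN lay above both. Prim1 rose 2.1-fold in LPN over SPN (log2 1.07, SE 0.31, adjusted p = 0.0309), and the difference from EPN was of like size and did not pass (1.09, SE 0.31, adjusted p = 0.0597). The call against SPN was lost without SPN B (adjusted p = 0.0706), SPN C (0.175), LPN A (0.0803) or LPN B (0.154), in the fit of the 6 SPN and LPN libraries (0.0523), without the filter (0.0542) and in edgeR (0.059). The regulatory primase subunit gene Prim2 was at 102, 57.8 and 56.6 CPM in SPN and 124, 109 and 75.5 CPM in LPN (log2 0.53, adjusted p = 0.302). Pola1, the catalytic subunit of polymerase alpha, was at 97.1, 62.2 and 102 CPM in SPN, 166, 126 and 143 CPM in EPN, and 116, 110 and 101 CPM in LPN. EPN lay above both other groups, by 0.75 over SPN (SE 0.30, adjusted p = 0.346) and 0.40 over LPN (adjusted p = 0.481). The other subunit, Pola2, spread from 4.86 to 44.1 CPM with no separation.

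Polymerase delta showed its catalytic subunit near the limit of detection in single libraries of each group. Pold1 was at 0.0716, 0.886 and 2.10 CPM in SPN, 1.81, 1.09 and 0.30 CPM in EPN, and 0.386, 0 and 6.95 CPM in LPN, where 0 allows up to 0.394 CPM. Single libraries of every group were thus near or below 1 CPM, and no direction could be read. Pold2, which bridges the complex, was at 13.0, 6.91 and 10.2 CPM in SPN, 8.31, 2.19 and 4.20 CPM in EPN, and 6.17, 1.97 and 0.168 CPM in LPN. All 3 LPN libraries were below all SPN libraries (log2 -1.88, SE 0.67, adjusted p = 0.0707). Pold3, the accessory subunit, was far higher at 177 ± 50.5, 275 ± 85.4 and 171 ± 51.4 CPM. Pold4 reached at most 1.36 CPM and was not tested. Polymerase epsilon was detected in full: Pole, the catalytic subunit, was at 31.7, 32.2 and 26.9 CPM in SPN, 30.9, 29.6 and 23.2 CPM in EPN, and 49.3, 55.2 and 46.1 CPM in LPN. The LPN libraries of Pole lay above both groups, with differences of 0.71 from SPN (adjusted p = 0.204) and 0.83 from EPN (adjusted p = 0.205). Pole2 averaged 21.1 ± 5.86, 32.7 ± 7.52 and 42.9 ± 8.64 CPM, and LPN did not overlap SPN (log2 1.0, adjusted p = 0.0944). Pole3, a histone-fold subunit, was lower in every LPN library (87.6 to 152 CPM) than in any SPN or EPN library (154 to 183 CPM; log2 -0.61 against SPN, adjusted p = 0.171). Its partner Pole4 was at 466, 468 and 466 CPM in EPN, below all SPN (478 to 750 CPM) and LPN libraries (574 to 641 CPM), with adjusted p = 0.562 against SPN and 0.416 against LPN.

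The clamp loader opens PCNA and closes it around primed DNA; Rfc1 is its large subunit and Rfc2 to Rfc5 the small ones. Rfc2 was at 4.37, 5.58 and 12.9 CPM in SPN, 8.74, 10.2 and 11.2 CPM in EPN, and 32.5, 27.7 and 19.1 CPM in LPN. LPN was above both groups, which overlapped each other. Rfc2 rose 3.4-fold in LPN over SPN (log2 1.77, SE 0.51, adjusted p = 0.0302), and was 1.29 higher than in EPN (adjusted p = 0.165). The call against SPN was lost without SPN B (adjusted p = 0.0895), LPN A (0.115) or LPN B (0.113) and without the filter (0.0582), and held without SPN A at 1.49 (adjusted p = 0.043). In the gene models 15.1% of the exon bases of Rfc2 lie under Lat2 on the other strand (4.81 to 19.5 CPM), and the counting is not said to use strand, so reads of the pair may be mixed. The same applies to Rfc4, with 12.65% of its exon bases under Eif4a2 on the other strand (107 to 296 CPM, above any Rfc4 value). No such overlap was found for Orc3, Prim1 or Gins1.

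The other loader subunits had differences of both signs in LPN. Rfc4 was at 17.9, 11.6 and 17.5 CPM in SPN and 30.4, 43.2 and 28.1 CPM in LPN without overlap (log2 1.07, adjusted p = 0.101), and Rfc3 at 12.3, 10.9 and 34.4 CPM in SPN and 39.1, 32.1 and 40.9 CPM in LPN with overlap (1.10, adjusted p = 0.137). Rfc5 was at 103, 32.1 and 53.6 CPM in SPN, 80.9, 70.6 and 118 CPM in EPN, and 48.9, 34.0 and 36.4 CPM in LPN. LPN lay below EPN (log2 -1.14, SE 0.37, adjusted p = 0.0966) and overlapped SPN. Rfc1 was at 108, 141 and 151 CPM in SPN, 238, 150 and 211 CPM in EPN, and 132, 141 and 151 CPM in LPN, with an EPN difference of 0.57 from SPN (SE 0.29, adjusted p = 0.466). Pcna was at 217 ± 32.6, 246 ± 31.7 and 266 ± 44.7 CPM. Summed over the clamp and loader, CPM was 416 to 496 in SPN, below EPN (550 to 630) and LPN (509 to 590), a sum set mainly by Pcna and Rfc1.

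RPA coats the unwound strand. Rpa3, its smallest subunit, was at 35.5, 54.8 and 47.9 CPM in SPN, 26.4, 37.7 and 32.3 CPM in EPN, and 60.2, 69.0 and 70.2 CPM in LPN. LPN was the highest group, with differences of 1.04 from EPN (SE 0.35, adjusted p = 0.103) and 0.54 from SPN (adjusted p = 0.326). Rpa1, the large DNA-binding subunit, was at 9.10, 20.8 and 28.6 CPM in SPN, 39.2, 33.3 and 21.6 CPM in EPN, and 14.3, 11.04 and 23.1 CPM in LPN, with an EPN difference from SPN of 0.75 (adjusted p = 0.574). Rpa2 stood at 478 CPM in SPN A and at 227 and 213 CPM in SPN B and C, with EPN from 234 to 318 CPM and LPN from 341 to 448 CPM. EPN and LPN did not overlap for Rpa2 (log2 0.49, adjusted p = 0.365).

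Okazaki fragments are trimmed by Fen1 and Dna2 and sealed by Lig1. Fen1 was scarce, at 0.501, 0.443 and 0.0875 CPM in SPN, 1.74, 1.88 and 2.47 CPM in EPN, and 2.12, 0 and 2.18 CPM in LPN, and it passed the filter through EPN and LPN only, so that a lower level in those groups could not have been tested and no p is given. In addition 78.8% of the exon bases of Fen1 lie under an antisense gene that is not in the table. A further overlap, 5.37% of its exon bases, is with Tmem258 on the other strand. Tmem258 was at 34.1 to 71.7 CPM, above any Fen1 value, so the few Fen1 reads may be mixed with its reads. Dna2 was at 32.3, 52.3 and 36.6 CPM in SPN, 59.2, 54.7 and 52.2 CPM in EPN, and 50.8, 75.0 and 86.9 CPM in LPN. LPN A lay below SPN B for Dna2, and the difference was 0.79 (SE 0.34, adjusted p = 0.132). Lig1 was at 8.67, 8.33 and 7.35 CPM in SPN, 20.3, 6.17 and 8.16 CPM in EPN, and 14.8, 11.3 and 21.0 CPM in LPN, so that LPN did not overlap SPN (0.84, adjusted p = 0.32) and LPN against EPN gave 0.54 (adjusted p = 0.608).

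Both topoisomerase genes, whose products relax the torsion ahead of the fork and part the daughter strands, were highest in EPN on average. Top1 was at 343, 267 and 284 CPM in SPN, 470, 550 and 611 CPM in EPN, and 284, 315 and 425 CPM in LPN. EPN did not overlap either group, with a log2 difference of 0.86 from SPN (SE 0.27, adjusted p = 0.213) and of -0.68 in LPN against EPN (adjusted p = 0.159); without SPN A the EPN difference was 0.97 (adjusted p = 0.0341). Top2a was at 164, 195 and 207 CPM in SPN, 268, 343 and 265 CPM in EPN, and 222, 222 and 274 CPM in LPN. Every EPN and LPN library of Top2a was above every SPN library (0.62 in EPN, adjusted p = 0.39; 0.34 in LPN, adjusted p = 0.436). The summed CPM of the pair was 835 ± 85.3 in EPN, 487 ± 23.1 in SPN and 581 ± 104 in LPN.

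Nucleotide supply was represented by ribonucleotide reductase (Rrm1 and Rrm2), thymidine kinase (Tk1) and thymidylate synthase (Tyms). Tk1 was at 14.4, 16.8 and 28.9 CPM in SPN, 34.0, 11.7 and 16.3 CPM in EPN, and 40.5, 42.6 and 46.1 CPM in LPN. LPN lay above both groups, with differences of 1.13 from SPN (SE 0.43, adjusted p = 0.0925) and 1.15 from EPN (adjusted p = 0.14). Tyms was at 67.0, 78.0 and 47.1 CPM in SPN, 35.6, 38.4 and 16.0 CPM in EPN, and 54.6, 51.6 and 39.7 CPM in LPN. EPN was the lowest group for Tyms, at -1.13 from SPN (SE 0.38, adjusted p = 0.249). Rrm1 was at 89.9, 35.3 and 33.0 CPM in SPN, 33.0, 43.7 and 29.4 CPM in EPN, and 76.5, 62.5 and 76.2 CPM in LPN, with LPN above EPN by 1.01 (SE 0.38, adjusted p = 0.135). Its partner Rrm2 had 677 CPM in SPN A and 316 and 293 CPM in SPN B and C. SPN A thus carried the highest SPN level of Orc5, Rpa2, Rrm1 and Rrm2 and the lowest of Gins3.

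**Figure D4:**
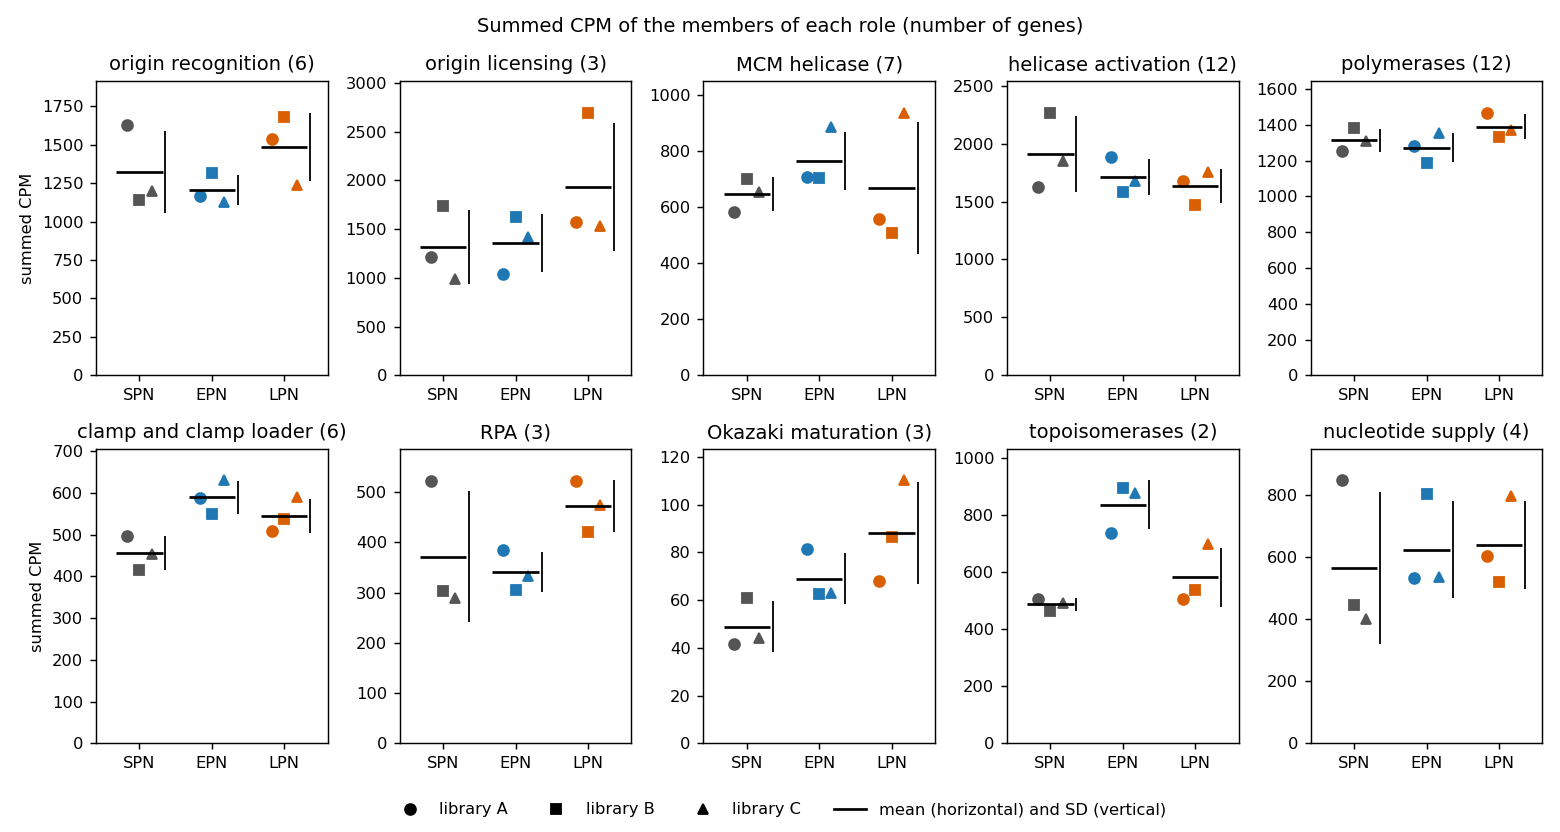
Summed CPM of the members of each role (linear axes from 0, a scale for each role) in the 9 libraries, with group mean and SD (n = 3). The clamp and loader sum has its 3 SPN points lowest, and the topoisomerase sum has its 3 EPN points highest (737 to 893).

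Set side by side, the roles had median log2 differences of mixed sign in EPN against SPN and mostly positive ones in LPN against SPN. In EPN against SPN the median was 0.74 over both topoisomerase genes, 0.47 over the 3 Okazaki genes (3 of 3 positive), 0.40 over the 6 clamp and loader genes (6 of 6), 0.39 over the 7 MCM genes (4 of 7), 0.10 over the 12 genes of helicase activation, 0.06 over the 3 licensing genes and 0.05 over the 6 ORC genes (3 of 6). It was -0.05 over the 11 tested polymerase genes (4 of 11 positive), -0.05 over the 3 RPA genes and -0.23 over the 4 genes of nucleotide supply. The Okazaki genes include Fen1 (1.18), which passed the filter only through EPN and LPN, so a negative sign for it could not have been tested. Dna2 was at 0.47 and Lig1 at 0.30. The polymerase median became 0.01 with median-of-ratios scaling.

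In LPN against SPN the role medians were positive in 9 of 10 roles. They were 0.79 for Okazaki maturation (3 of 3 positive), 0.68 for the clamp and loader (5 of 6), 0.54 for helicase activation (10 of 12), 0.44 for RPA, 0.41 for nucleotide supply, 0.27 for the polymerases (6 of 11), 0.26 for the topoisomerases, 0.18 for ORC (4 of 6) and 0.12 for licensing. The MCM genes alone had a negative median, -0.10 (2 of 7 positive), which turned to 0.08 with median-of-ratios scaling, where all 10 medians were positive, up to 0.97, and that of ORC was 0.36. In LPN against EPN 8 medians were positive, led by nucleotide supply at 0.89, with 0.43 for the clamp and loader (4 of 6), 0.40 for ORC (6 of 6) and 0.18 for the polymerases (6 of 11). Those of MCM (-0.33, 3 of 7 positive) and the topoisomerases (-0.48) were negative. Both comparisons against SPN share the SPN libraries, and LPN against EPN shares libraries with each. In LPN against SPN the Okazaki genes again include Fen1 (0.69), with the same limit from the filter, beside Dna2 at 0.79 and Lig1 at 0.84. The roles hold 2 to 12 genes, and no test was made of their medians.

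**Figure D5:**
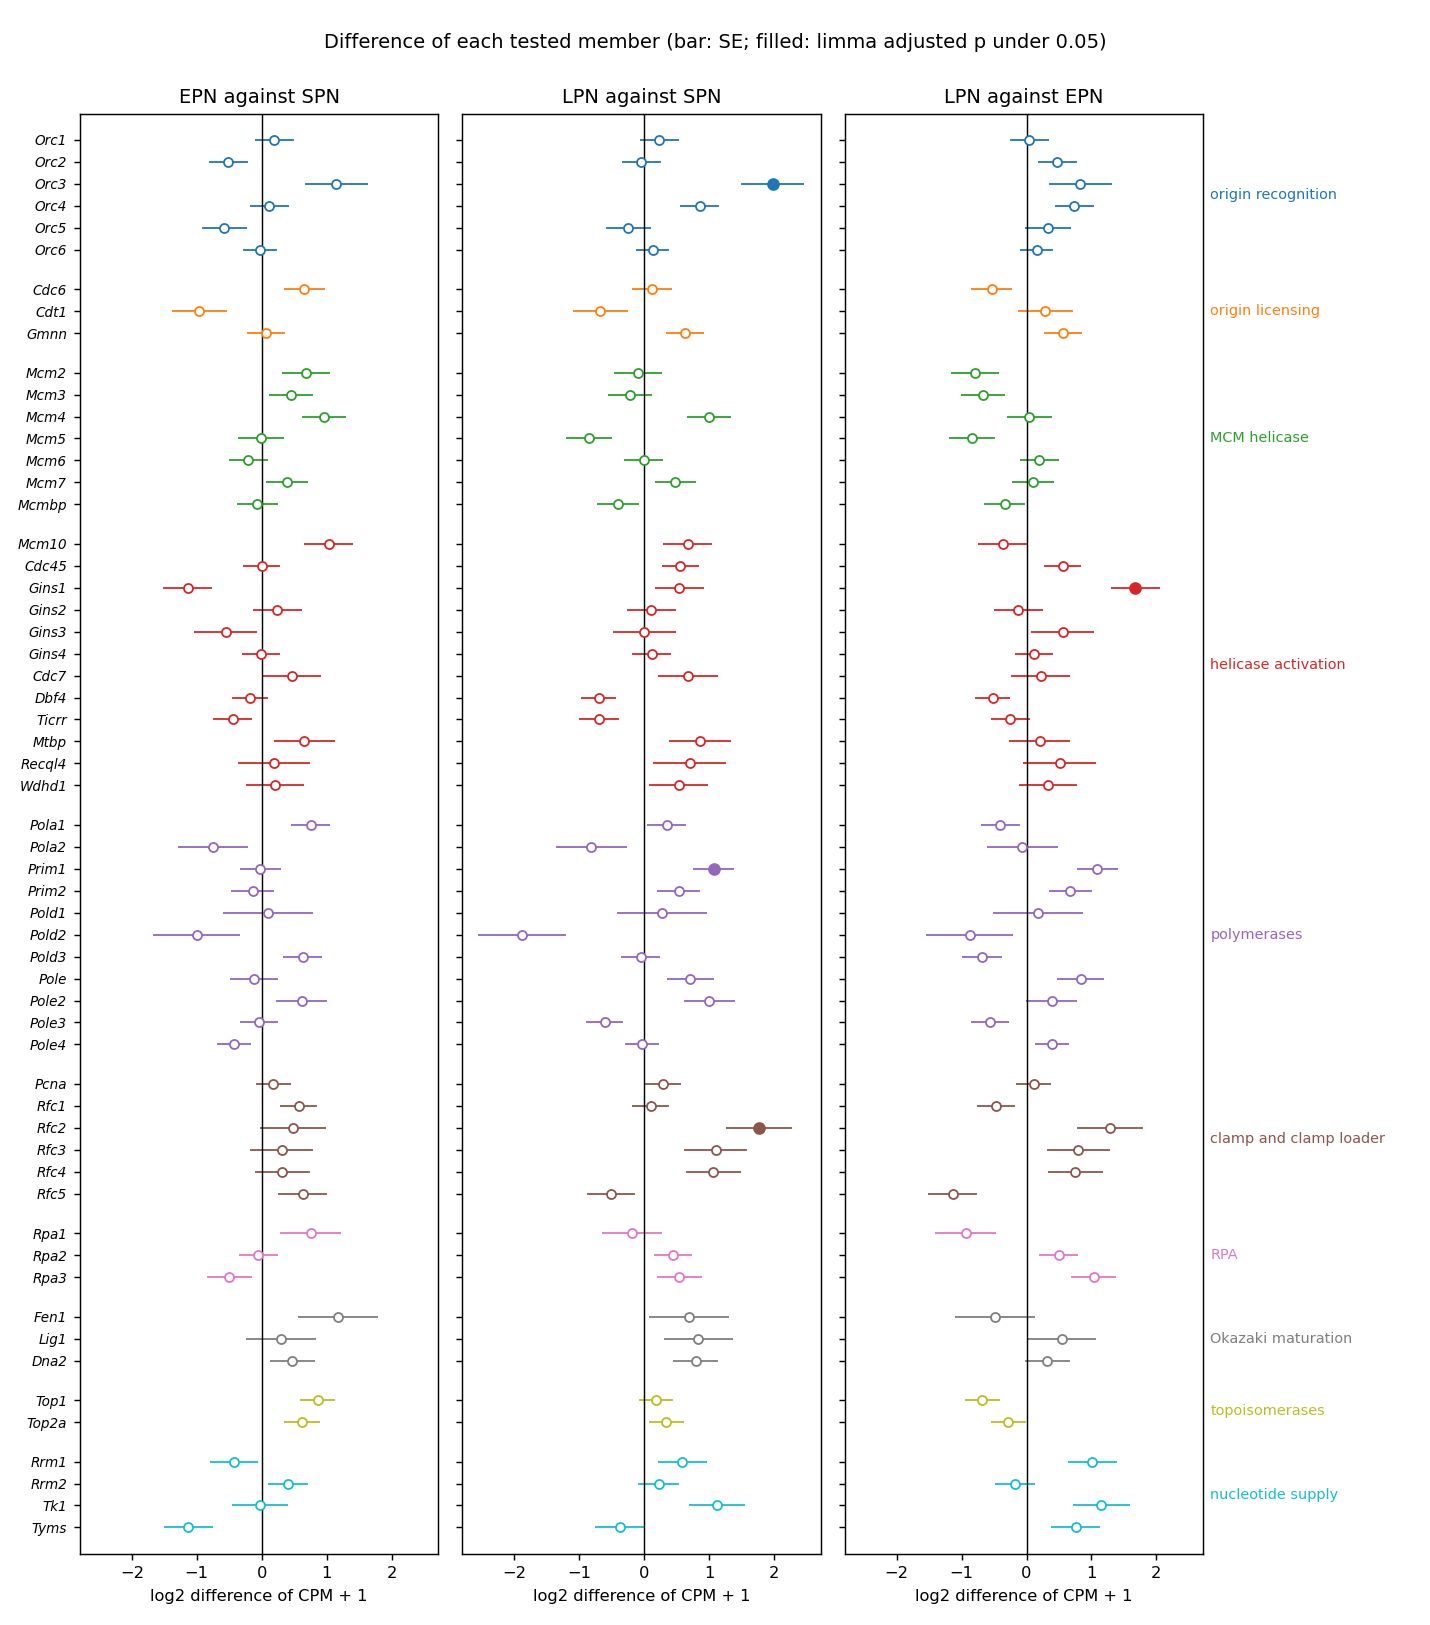
Log2 difference of CPM + 1 (horizontal axis) of the 57 tested members in the 3 comparisons, grouped by role, with bars for 1 SE of the limma contrast and filled points for adjusted p under 0.05. The 4 filled points are Orc3, Prim1 and Rfc2 in LPN against SPN and Gins1 in LPN against EPN.

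Counts of members whose libraries did not overlap between groups are given with the same count over all genes. In EPN against SPN 8 members (14%) lay wholly higher and 5 (8.77%) wholly lower, beside 7.07% and 7.56% of all tested genes. One of the 8 is Fen1, which passed the filter only through EPN and LPN. In LPN against SPN 14 (24.6%) were wholly higher and 3 (5.26%) wholly lower, beside 11.3% and 16.2%. In LPN against EPN the counts were 15 (26.3%) and 7 (12.3%), beside 11.3% and 15.3%. At an unadjusted p under 0.05 the members numbered 11 (19.3%, beside 11% of all genes), 16 (28.1%, beside 26.9%) and 14 (24.6%, beside 19.3%). Positive differences were seen in 33 of 57 members in EPN against SPN (57.9%, beside 45.5% of all genes), in 39 for LPN against SPN (68.4%, beside 43%) and in 36 when LPN was set against EPN (63.2%, beside 43.3%). Fen1 is among the positive ones in both comparisons against SPN. The members' median differences were 0.18, 0.29 and 0.20, beside the shifts of all genes given above. With median-of-ratios scaling they were 0.23, 0.47 and 0.32, beside -0.03, -0.03 and -0.04 for all genes. The order of means SPN, EPN, LPN from low to high was found for 19 members (33.3%, beside 16.8% of all genes), and the reverse order for 5 (8.77%, beside 29.2%), namely Mcmbp, Dbf4, Ticrr, Pold2 and Pole3. No test was made of these shares.

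Count models on the recovered reads gave other numbers of calls. In LPN against SPN edgeR called 2 members (3.51%: Orc3 and Rfc2), beside 3.21% of all genes, and DESeq2 called 9 (15.8%: Orc3, Orc4, Mcm4, Prim1, Pole2, Rfc2, Rfc4, Dna2 and Tk1), beside 12.3%. In LPN against EPN edgeR called Gins1 (1.75%, beside 0.114%), and DESeq2 called 6 members (10.5%: Gins1, Prim1, Pole, Rfc2, Rpa3 and Tk1), beside 6.22%. In EPN against SPN neither tool called a member, beside 0% of all genes in edgeR and 0.787% in DESeq2, while 11 members were at an unadjusted p under 0.05 in limma and 9 in each of edgeR and DESeq2. Without SPN A, limma called 4 members in EPN against SPN (7.02%: Mcm4, Gins1, Gins3 and Top1), beside 3.14% of the 14597 genes then tested. In LPN against SPN it then called 11 (19.3%: Orc3, Orc4, Mcm4, Mcm5, Cdc45, Dbf4, Prim1, Pole2, Rfc2, Rpa2 and Rrm1), beside 18.9%.

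Other replication genes were taken from a list of 83 genes, of which 82 were tested. None passed in EPN against SPN, with 7 at an unadjusted p under 0.05 (8.54%, beside 11% of all genes). In LPN against SPN 6 fell (7.32%, beside 5.54%), 2 rose (2.44%, beside 3.26%) and 74 did not pass. In LPN against EPN 1 fell (1.22%, beside 0.84%). The list's shares are near those of all genes. All 6 that fell are among the 32 S-phase kinases and regulators (18.75% of these, beside 5.54% of all genes). No test was made of that share. E2f5, a member of the repressive branch of the E2F family, averaged 542 ± 111 CPM in the SPN libraries and fell to 140 ± 20.1 CPM in LPN (log2 -1.94, SE 0.28, adjusted p = 0.000378), with EPN between them at 240 ± 44.2 CPM. Wee2, the oocyte form of the kinase that inhibits CDK1, was at 1098, 740 and 993 CPM in SPN, 971, 502 and 851 CPM in EPN, and 407, 343 and 281 CPM in LPN. It fell by 1.45 on the log2 scale against SPN (SE 0.28, adjusted p = 0.00333) and by 1.13 against EPN (adjusted p = 0.0389).

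Ddb1, an adaptor of the CUL4 ubiquitin ligase that removes Cdt1 in S phase, fell from 135 ± 52.6 to 49.1 ± 5.90 CPM in LPN (log2 -1.38, adjusted p = 0.0107). E2f1, an activating E2F, fell from 68.5 ± 22.7 to 23.8 ± 8.96 CPM (-1.50, adjusted p = 0.0248). Cdc25b, a phosphatase that activates CDKs, fell from 18.7 ± 9.61 to 3.86 ± 1.32 CPM (-1.92, adjusted p = 0.0354), and E2f4 from 66.2 ± 15.9 to 27.7 ± 15.3 CPM (-1.39, adjusted p = 0.0372). E2f5 and Wee2 passed against SPN in all 17 alternative settings, and Wee2 against EPN in 8 of them.

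The other calls on this list depended on single libraries and, for most, on the processing. Ddb1 passed in 15 of 17 settings and was lost without SPN C (adjusted p = 0.117) or LPN B (0.0546). E2f1 passed in 12 and was lost without SPN B (0.083), SPN C (0.156) or LPN B (0.142), without the filter (0.0694) and in edgeR (0.064). Cdc25b passed in 9 and was lost without SPN B (0.104), SPN C (0.192), LPN A (0.0661), LPN B (0.0835) or LPN C (0.0865), without the filter (0.0833), in edgeR (0.062) and in the fit of 6 libraries (0.0513). E2f4 passed in 7 and was lost without SPN A (0.0526), SPN B (0.0524), SPN C (0.175) or LPN B (0.264), and in 6 processing alternatives, edgeR and DESeq2 among them (0.054 to 0.125). The Wee2 call against EPN was lost without EPN A (0.223), EPN C (0.168) or any LPN library (0.0716 to 0.164), and with a pseudocount of 0.1 CPM, no filter, median-of-ratios scaling or edgeR (0.0597 to 0.131).

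The 2 genes that rose are named after their values were seen. Stn1, a subunit of the CST complex that works with primase, rose from 16.8 ± 3.25 to 41.8 ± 2.15 CPM (log2 1.28, adjusted p = 0.0496). It passed in 5 of 17 settings, and no library could be left out without losing the call (0.0518 to 0.147). The polymerase gene Polq rose from 65.0 ± 36.5 to 130 ± 30.1 CPM (log2 1.10, adjusted p = 0.0426). It passed in 6 of 17 settings, and of the fits with a library left out it passed in those without SPN B or EPN A (0.0533 to 0.245 in the others). The 17 fork factors and alternative loaders and the 15 genes of nucleotide metabolism held no call in any comparison.

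Stage and cell type markers were measured in the same libraries. The summed CPM of the 9 listed 2-cell genes in the table was 1742 to 3205 in SPN, 3653 to 5423 in EPN and 4393 to 6958 in LPN, so their sum was lowest in the sham group. Singly, Usp17lb, Zfp352 and Eif1ad7 were lowest in SPN without overlap. Tcstv3 was so against LPN only, and Zscan4c, Zscan4d and Zscan4f overlapped. Tcstv1 was lower on average in EPN (147 to 231 CPM) than in SPN (199 to 409.5 CPM), with overlap. Dux, at most 3.455 CPM, was lower in every LPN than in every SPN library. Oocyte transcripts (12 of 12 in the table) summed to 11856 to 12475, 11345 to 16088 and 12042 to 15833 CPM, most of it Dppa3, which was higher in every LPN library (9290 to 13678 CPM) than in SPN (6599 to 8339 CPM). Of the 12, Bcl2l10, Oosp1, Bmp15 and Gdf9 were lower in every LPN than in every SPN library. Bcl2l10 ran from 1225 to 1972 CPM in SPN, 983 to 1151 in EPN and 395 to 676 in LPN, and Oosp1 from 1839 to 2107, 1312 to 1527 and 655 to 1180. Bmp15, an oocyte growth factor, ran from 474 to 699 CPM in SPN and 170 to 289 in LPN, and Gdf9, its partner, from 124 to 202 and 51.6 to 70.7. Zp3 was higher in every LPN library, and the other 6 overlapped between SPN and LPN. Cumulus and granulosa markers (8 of 12 in the table) summed to 12.2 to 14.6, 16.4 to 31.2 and 11.4 to 22.2 CPM, with the defining gene Foxl2 at 0 in every library. Sperm markers (6 of 10) summed to 114 to 156, 65.4 to 120 and 83.3 to 109 CPM, with Prm1 and Tnp1 at 1.84 CPM or less. Most of that sum was Odf2, except in LPN B, where Ldhc (61.5 CPM) exceeded it (44.3 CPM). Blood markers (4 of 9) summed to 49.4 to 103, 39.1 to 87.6 and 15.6 to 41.3 CPM, mostly Hba-a1 (9.13 of 15.6 CPM in LPN A), and overlapped between neighbouring groups, with LPN below SPN. The 2-cell sum, these oocyte transcripts and the blood sum thus moved with LPN against SPN, and their part in the results on Orc3, Prim1, Rfc2, E2f5 and Wee2 was not tested.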

How the data were processed

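Each library was a pool of 3 embryos, with groups taken from the labels. Per the labels' protocols, cDNA was made from poly(A) RNA with the Smart-seq2 v4 kit, libraries with Nextera XT, and 150-bp pairs were read on a NovaSeq instrument. The submitters' processing notes list the GRCm39 build, HISAT2 2.2.1, edgeR, Trim Galore 0.6.7 and R 3.3.3. For the counter, the annotation and the use of strand, nothing is given in the sources used here. Deposited values are CPM made by the authors for 19359 genes. All values were whole multiples of 1 read within 0.01 reads, which gave back reads and library totals; between 3.66% and 5.68% of a library's total belonged to no listed gene.

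The test was limma 3.58.1 (R 4.3.3; trend, empirical Bayes; degrees of freedom 6 residual and 25.9 prior) on log2(CPM + 1), for 14876 genes with at least 1 CPM in 3 libraries, in 1 model of 9 libraries with 3 two-sided contrasts, adjusted by Benjamini-Hochberg. Fold changes on this scale understate those of low genes. Alternatives were edgeR 4.0.16 and DESeq2 1.42.0 on the recovered reads, a pseudocount of 0.1 CPM, no filter, a mean of at least 5 CPM, median-of-ratios scaling, a fit of the 6 libraries compared, a replicate block and each library left out. The scripts were tested on simulated data. Members with full statistics are those called and, in each role, that with the smallest p in each comparison; other listed replication genes are up to 6 called per comparison. Members and lists were chosen with earlier results of these data known. Same-letter libraries of different groups had correlations of deviations from -0.024 to 0.092, within the range of different-letter ones (-0.0996 to 0.0960). Letters were not taken as pairs in the main test, and pairing is not excluded. Transcript lengths and exon overlaps are from GENCODE vM21 (GRCm38) and promoters from RefSeq (GRCm38.p6), older builds than the authors'. Reads of Pcna and Tyms may be shared with annotated pseudogenes.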

Additional observations from a re-analysis of the deposited data

Results flagged for a closer look

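Gins1 was set apart because the effects of the 2 transfer timings on it differed by a test of the difference itself. The later transfer lay 1.68 above the early one on the log2(CPM + 1) scale (limma adjusted p = 0.0258), which is the difference between the effects against the sham group, 0.54 for LPN (adjusted p = 0.365) and -1.14 for EPN (adjusted p = 0.243), neither of which passed. All 3 LPN libraries were above all EPN libraries. The call held in 11 of 17 alternative settings and was lost without the filter (adjusted p = 0.0766), without EPN A (0.112), EPN B (0.0581) or EPN C (0.0944), and without LPN A (0.0796) or LPN B (0.135). Groups of 3 libraries were not screened for single outlying values.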

How the results depend on the processing

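For the genes given with full statistics no difference changed sign in any alternative: 564 alternatives kept the direction and the side of the threshold, 77 kept the direction and lost the call, and 21 kept the direction and gained one. Over all 57 tested members, median-of-ratios scaling turned the sign of 6, 5 and 1 differences in EPN against SPN, LPN against SPN and LPN against EPN, edgeR of 5, 6 and 1, and DESeq2 of 6, 6 and 1, all of differences at most 0.10 in size. The medians of the polymerases in EPN against SPN (-0.05 to 0.01) and of MCM in LPN against SPN (-0.10 to 0.08) also turned with that scaling. For EPN against SPN the count of members called was 0 in every alternative that kept all 9 libraries or the 6 compared. The count over all genes was 16, and it became 4 with a pseudocount of 0.1 CPM, 0 without the filter, 3 with median-of-ratios scaling, 0 in edgeR (with 1304 genes at an unadjusted p under 0.05) and 117 in DESeq2.

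For LPN against SPN the 3 members called became 1 without the filter, 5 at a mean of at least 5 CPM, 5 with median-of-ratios scaling and 9 in DESeq2. The 1309 genes called in all became 494 without the filter, 477 in edgeR and 772 in the fit of 6 libraries. For LPN against EPN the 1 member called became 0 without the filter, 2 at a mean of at least 5 CPM, 6 in DESeq2 and 3 in the fit of 6 libraries. The 228 genes called in all became 62 with a pseudocount of 0.1 CPM, 0 without the filter, 395 at a mean of at least 5 CPM, 17 in edgeR, 926 in DESeq2 and 588 in the fit of 6 libraries. The cause of these changes was not tested. Scaling by median of ratios moved the share of called genes that were higher from 68.8% to 100% (3 of 3) for EPN against SPN, from 37.1% to 55% (663 higher and 542 lower) for LPN against SPN, and from 45.2% to 70.6% (127 higher and 53 lower) for LPN against EPN.

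With each library left out, members called ran from 0 to 4 in EPN against SPN (4 without SPN A). They ran from 0 (without SPN B or LPN B) to 11 (without SPN A) for LPN against SPN, and from 0 (without any EPN library, LPN A or LPN B) to 4 (without SPN A) in LPN against EPN. All genes called ran from 0 (without EPN C) to 458 (without SPN A), from 123 (without SPN C) to 2753 (without SPN A), and from 4 (without LPN B) to 789 (without SPN A).

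With the replicate letter as a replicate block, members called numbered 0 for EPN against SPN, 3 for LPN against SPN and 2 for LPN against EPN, and all genes called were 25, 1644 and 480. Calls over all genes were more with the block than the 16, 1309 and 228 without it. Whether the letters pair the libraries is not settled by the correlations of deviations. Same-letter ones ran from -0.024 to 0.092 and different-letter ones from -0.0996 to 0.0960. SPN A correlated best with LPN B (0.0566), and SPN B with EPN B (0.0714). Depth limits Pold1, Pold4 and Fen1 in some libraries, which are at or near the level that 0 reads allows. Other libraries lay above it, up to 6.95 CPM for Pold1, 1.36 CPM for Pold4 and 2.47 CPM for Fen1.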
